A study of Mus musculus with 64 samples.

Results

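The 34 genes described here are Trp53, the mouse gene of p53, its 3 negative regulators Mdm2, Mdm4 and Ppm1d, and 30 genes that p53 is known to activate. They were taken from the table of raw read counts by their mouse symbols, and all 34 were found among 55335 genes. By known role they fell into p53 and its negative regulators (4 genes), cell cycle arrest and growth (7), apoptosis (12), DNA repair and nucleotide supply (5), and metabolism, autophagy and secreted stress factors (6).

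p53 is a transcription factor that is made all the time and destroyed at once, because MDM2 marks it for the proteasome and MDM4 covers its activation domain. Damage to DNA, arrest of RNA polymerase II or failing ribosome assembly stops this destruction, and p53 then activates genes for cell cycle arrest, repair, death and metabolism. Among its targets are Mdm2 and Ppm1d, whose proteins switch p53 off again, so the loop limits itself. Mouse embryonic stem cells hold much p53 and are known for a weak arrest in G1 phase. p53 protein was not measured here, and most control of p53 acts on the protein and not on the Trp53 mRNA.

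RNA came from V6.5 mouse embryonic stem cells, either wild type (WT) or with an auxin-inducible degron on 1 of the 12 subunits of RNA polymerase II (Pol II), RPB1 to RPB12. Per the protocol, doxycycline was given first to induce OsTir1, the auxin receptor, and 500 µM of the auxin indole-3-acetic acid (IAA) was then added or left out for 12 h. The 12 h set holds 52 libraries, untreated or treated, from 13 lines. A short time course of 12 libraries followed the RPB1, RPB3 and RPB6 lines at 0 h and 1 h of IAA. Each of the 32 groups had 2 libraries. The medium of every group contained the GSK3 inhibitor CHIR99021 and the MEK inhibitor PD0325901. The sources used here do not give whether WT cells carried OsTir1 or whether a line is 1 clone. Nothing in the labels ties the libraries of a group to separate cultures. The p-values therefore measure the spread between these samples only, and it may be technical.

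Libraries of the 12 h set held 3399838 to 7164928 counts, those of the time course 8598431 to 13281252. The summed level of 10 embryonic stem cell markers was 4768 to 7117 CPM (a gene's counts relative to the library's total, after TMM scaling) in untreated cells and 3018 to 9563 CPM after 12 h of IAA, with none of the 10 at 0. Of these 10 markers 8 fell in each of RPB1, RPB2, RPB5, RPB6 and RPB8, where 28.1% to 34.0% of all genes fell. In each of RPB3, RPB7 and RPB9 7 fell (18.0% to 23.3% of all genes). The falls were 4 in RPB10 (21.2%), 4 in WT (0.842%), 3 in RPB11 (13.1%), 2 in RPB4 (0.948%) and 2 in RPB12 (2.65%). In each of RPB2, RPB5, RPB6 and RPB8 2 rose (27.3% to 31.5% of all genes), as did 2 in RPB4 (1.13%). In RPB10 (18.2%), RPB11 (10.6%) and RPB12 (2.14%) 1 rose. The markers' medians ran from -1.93 in RPB8 to -0.09 in RPB4. Their part in the members' changes was not tested. The sum of 7 fibroblast markers stayed at or under 30.7 CPM in the 12 h set, with Dcn at 0. The share of counts from mitochondrial mRNAs, which Pol II does not make, was 3.44% and 3.25% in the IAA-treated RPB2 libraries and 1.24% and 1.37% in the untreated ones. In RPB8 it was 3.61% and 3.80% after IAA against 1.35% and 1.58% untreated, and in RPB6 2.73% and 2.66% against 1.10% and 1.04%. It was 0.534% in replicate 1 of the IAA-treated RPB3 line, which stood apart from replicate 2 at 1.72%. CPM is a relative scale, on which a general loss of mRNA does not show, and in bulk samples fewer cells of a kind cannot be told apart from less RNA per cell.

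The promoters of 4 members held a close match to the p53 response element, and they are shown because p53 is known to act through this sequence. RefSeq windows of 250 bases before to 50 after the start site (GRCm38.p6, the same build as mm10) existed for 26 members, 35 windows in all. The p53 response element, 2 copies of a 10-base motif that reads alike on both strands, was searched with at most 2 mismatches, a spacer of at most 3 bases and the C and G of each core intact. It was found in 4 of the 35 windows (11.4%) and in 1.35% of all 32851 windows. A single exact copy of the 10-base motif was in 31.4% of the members' windows and 8.36% of all. The element is in capitals below, and any spacer between the copies is included in it.
Cdkn1a, chr17:29090908-29090967, plus strand: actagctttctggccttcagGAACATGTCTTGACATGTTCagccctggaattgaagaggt
Ccng1, chr11:40755442-40755501, minus strand: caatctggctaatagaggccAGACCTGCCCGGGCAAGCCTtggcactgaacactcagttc
Bax, chr7:45467059-45467118, minus strand: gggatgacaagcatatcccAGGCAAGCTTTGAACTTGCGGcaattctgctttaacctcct
Sesn1, chr10:41887235-41887294, plus strand: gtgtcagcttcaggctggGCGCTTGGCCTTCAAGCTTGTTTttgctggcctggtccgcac
The elements of Cdkn1a and Ccng1 had 1 mismatch each and those of Bax and Sesn1 had 2. The stretches of Cdkn1a and Ccng1 lie upstream of the gene in GENCODE M21, that of Bax lies within an intron of the same-strand gene model Gm45808, and that of Sesn1 within an intron of its longer transcript. A match describes letters and is not a measured binding site. The other windows say nothing about p53, since many of its sites are known to lie in introns, that of Mdm2 among them.

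Of the 34 members, 32 passed the filter on low counts, and the same number passed it on the untreated libraries alone. Fas, a death receptor, had 4 counts over all untreated libraries of the 12 h set and 29 over the treated ones, 12 of them in the RPB1 line. Dram1, a lysosomal protein, had 50 and 61. Neither was tested. Per kilobase of exon, Trp53 stood highest in untreated WT cells at 58.4 CPM per kb, followed by Bax (57.6) and Ccng1 (56.0), and Plk2 stood lowest of the tested members at 1.32 CPM per kb.

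After 12 h of IAA the members as a group rose in 1 set of lines and fell in another. A member was called when its Benjamini-Hochberg adjusted p from edgeR's quasi-likelihood test, adjusted over all genes tested, was under 0.05. In the RPB10 line 26 of the 32 tested members rose and 3 fell, while 39.4% of all genes were called, 18.2% higher and 21.2% lower. In the RPB1 line 25 rose and 5 fell (66.3% of all genes called, 35.8% higher and 30.5% lower). In the RPB5 line 23 rose and 3 fell (59.1%, 31.0% and 28.1%), and in the RPB3 line 21 and 6 (47.7%, 24.4% and 23.3%). The counts were 19 and 5 in RPB8 (61.7%, 31.5% and 30.2%), and 17 and 9 in RPB7 (41.3%, 20.2% and 21.1%). They were 14 and 3 in RPB11 (23.7%, 10.6% and 13.1%), and 13 and 4 in RPB9 (34.8%, 16.8% and 18.0%). The RPB2 and RPB6 lines had the opposite balance: 3 members rose and 21 fell in RPB2 (61.9%, 27.9% and 34.0%), and 4 rose and 24 fell in RPB6 (60.7%, 27.3% and 33.4%). Few members were called in the last 3 lines, with 3 and 4 in RPB12 (4.79%, 2.14% and 2.65%), 2 and 2 in RPB4 (2.08%, 1.13% and 0.948%), and 1 and 0 in WT (1.65%, 0.803% and 0.842%). Some of the 4 calls in RPB4 were lost when any 1 of its libraries was left out, and calls among all genes were lost as well.

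**Figure D1:**
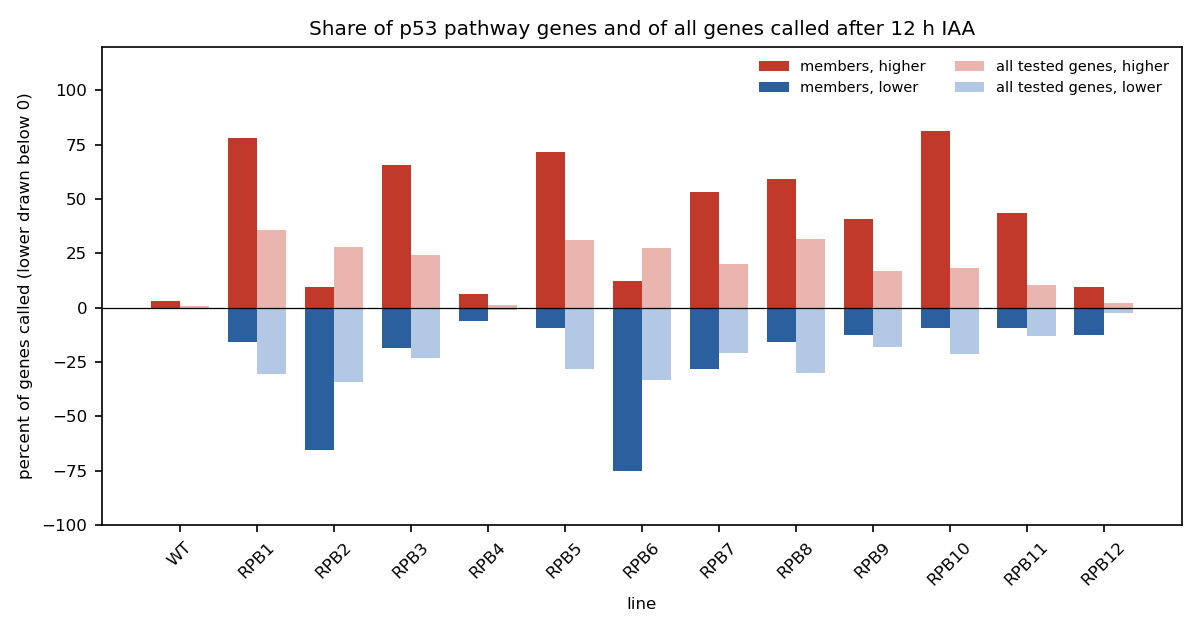
Percent of the 32 tested p53 pathway genes (dark bars) and of all 17928 tested genes (pale bars) called higher (above 0) or lower (drawn below 0) after 12 h of IAA, by line on the x axis. The dark red bar exceeds the pale red one in 11 of the 13 lines, the exceptions being RPB2 and RPB6, where 21 and 24 members were lower.

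Called genes were common in most lines, so the members are set beside all genes by their medians. The median log2 change was 1.29 for the members and 0.08 for all genes in RPB5, 1.25 and 0.09 in RPB1, and 1.05 and 0 in RPB10. It was 0.88 and 0.04 in RPB8, 0.76 and 0.06 in RPB3, 0.33 and 0 in RPB7, 0.28 and 0 in RPB9, and 0.27 and 0 in RPB11. The members' median was -0.95 in RPB2 and -1.01 in RPB6, below the all-gene medians of -0.19 and -0.13. Scaled to the mitochondrial mRNAs, the median of all genes moved to -2.32 in RPB2, -2.08 in RPB6, -1.44 in RPB8, -0.47 in RPB1 and 0.80 in RPB3. Relative to that median the members stood at -0.85, -0.89, 0.81, 1.15 and 0.77 in the same lines. On that scale 0 members were higher and 32 lower in RPB2, 0 and 30 in RPB6, 8 and 16 in RPB8, 24 and 0 in RPB3, 17 and 6 in RPB1, and 2 and 9 in RPB7. Without IAA replicate 1 of RPB3, the median in that line on this scale was 0.52 for the members and -0.16 for all genes. On total counts, 2 members were higher and 28 lower in RPB2, beside 2493 and 9271 of all 17928 genes.

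**Figure D2:**
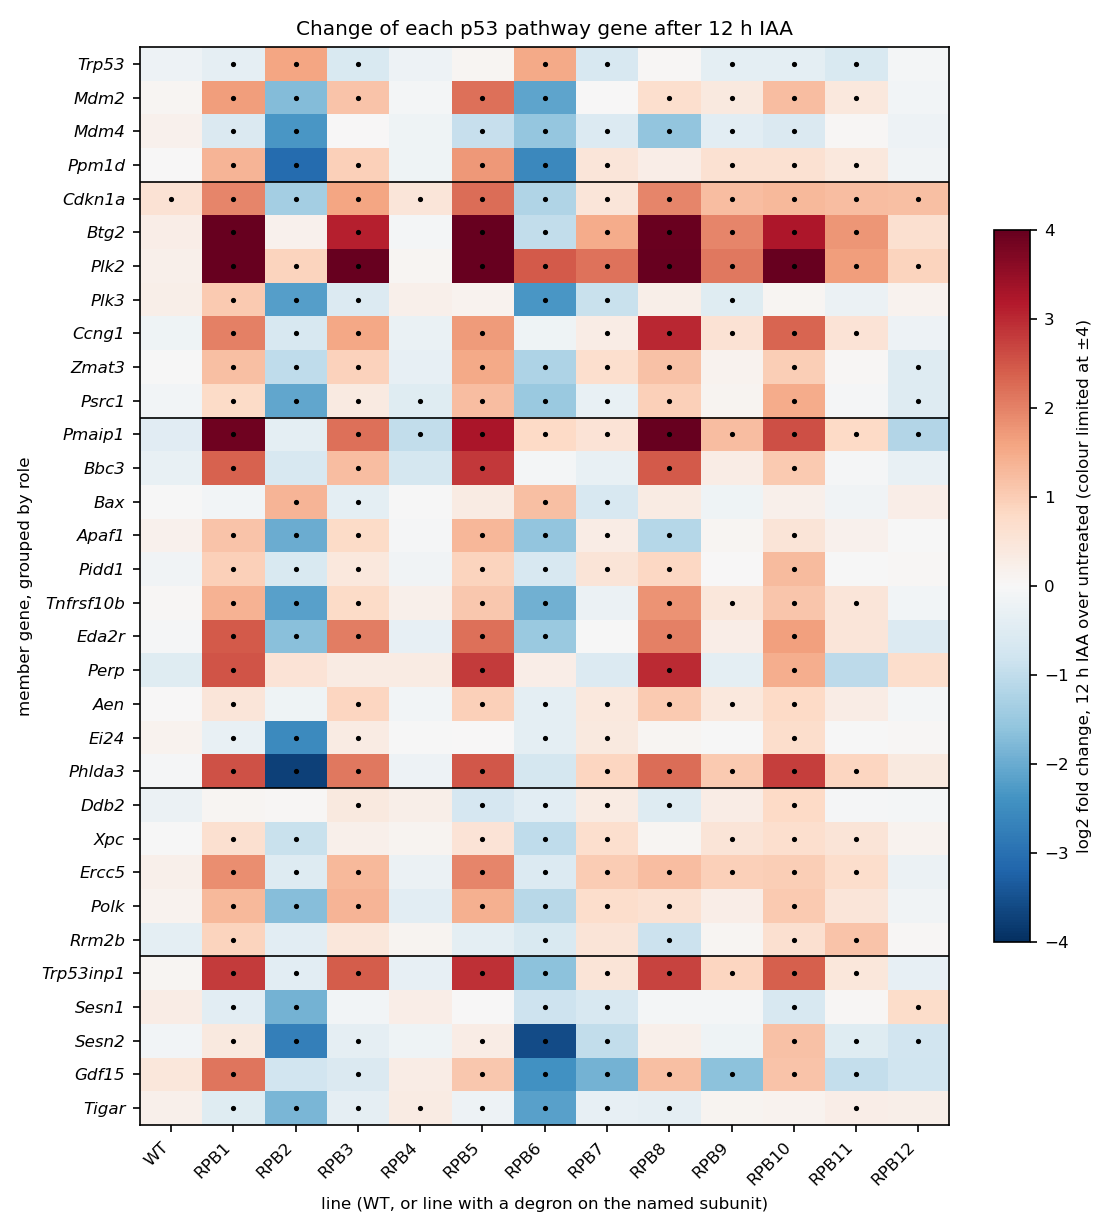
Log2 fold change of each of the 32 tested members (rows, separated by role) in each line (columns) after 12 h of IAA against untreated, with colour limited at 4 in either direction and a dot where the change was called. Plk2 and Btg2 are the darkest red rows, and the RPB2 and RPB6 columns are mostly blue, with Trp53, Bax and Plk2 red and called in both and Pmaip1 in RPB6.

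Trp53 mRNA did not follow the targets. In the RPB2 line it stood at 425 and 449 CPM untreated and at 1292 and 1293 CPM after IAA, a log2 change of 1.56 ± 0.067 (SE; edgeR's quasi-likelihood test, adjusted p = 1.31e-24). In the RPB6 line it stood at 314 and 324 CPM untreated and at 890 and 950 CPM after IAA (1.53 ± 0.067, edgeR adjusted p = 8.28e-24). Both treated pairs lay above every other library of the 12 h set, but on the mitochondrial scale the direction flipped, to -0.65 in RPB2 and -0.44 in RPB6. Trp53 fell in RPB1, RPB3, RPB7, RPB9, RPB10 and RPB11, by 0.37 to 0.63 on the log2 scale, with no overlap between treated and untreated libraries. Compared with the WT response, the Trp53 change was called lower in 3 degron lines and higher in 4, so not all 6 falls differed from WT. In the RPB3 line, for instance, it went from 285 and 298 CPM to 187 and 192 CPM, and on the mitochondrial scale that sign flipped as well (0.19), although without IAA replicate 1 it was -0.83. The table holds a processed pseudogene of Trp53 and 1 of Mdm4, so reads could be split between copies.

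Mdm2, the ligase that destroys p53 and itself a p53 target, rose in 7 lines and fell in 2. It stood at 78.4 and 61.0 CPM in untreated RPB5 cells and at 316 and 317 CPM after IAA (log2 change 2.19 ± 0.099, edgeR adjusted p = 3.50e-23). In the RPB1 line it went from 64.7 and 72.8 CPM to 235 and 201 CPM. In the RPB2 line it went from 74.0 and 76.1 CPM to 24.3 and 20.5 CPM (-1.75 ± 0.15, edgeR adjusted p = 1.25e-14), and in the RPB6 line from 67.9 and 68.8 CPM to 15.2 and 16.2 CPM (-2.12 ± 0.15, edgeR adjusted p = 2.76e-17). Treated and untreated libraries were apart in all of these lines. Mdm2 also rose in RPB3, RPB8, RPB9, RPB10 and RPB11 and was not called in RPB4, RPB7, RPB12 or WT, and its rise in RPB8 (0.66) flipped to -0.85 on the mitochondrial scale.

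Ppm1d, the phosphatase that removes activating phosphates from p53 and its kinases, had a like spread. It rose in 7 lines, most in RPB5, from 25.5 and 25.4 CPM to 80.8 and 87.1 CPM (1.72 ± 0.15, edgeR adjusted p = 5.16e-14). It fell in RPB2 from 29.4 and 30 CPM to 3.33 and 3.73 CPM (-3.06 ± 0.30, edgeR adjusted p = 2.07e-12), and in RPB6 from 26.3 and 28.1 CPM to 2.32 and 6.75 CPM. The rises in RPB7 and RPB11 were small (0.49 and 0.43). Without untreated replicate 1 the RPB7 change was 0.33, without IAA replicate 2 it was 0.39, and neither passed. The RPB11 change did not pass without either IAA replicate (0.43 and 0.42) or without untreated replicate 2 (0.35).

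Mdm4, the partner of MDM2 that covers p53's activation domain, rose in no line and fell in 8. The lowest values were in RPB2, from 143 and 122 CPM to 29.5 and 22.8 CPM (-2.34 ± 0.15, edgeR adjusted p = 8.94e-19). In RPB8, where 19 members rose, Mdm4 went from 186 and 194 CPM to 64.6 and 62.8 CPM (-1.57 ± 0.11). It was not called in RPB3 (0.01), RPB11 (0.03), RPB4 (-0.16), RPB12 (-0.19) or WT (0.18).

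**Figure D3:**
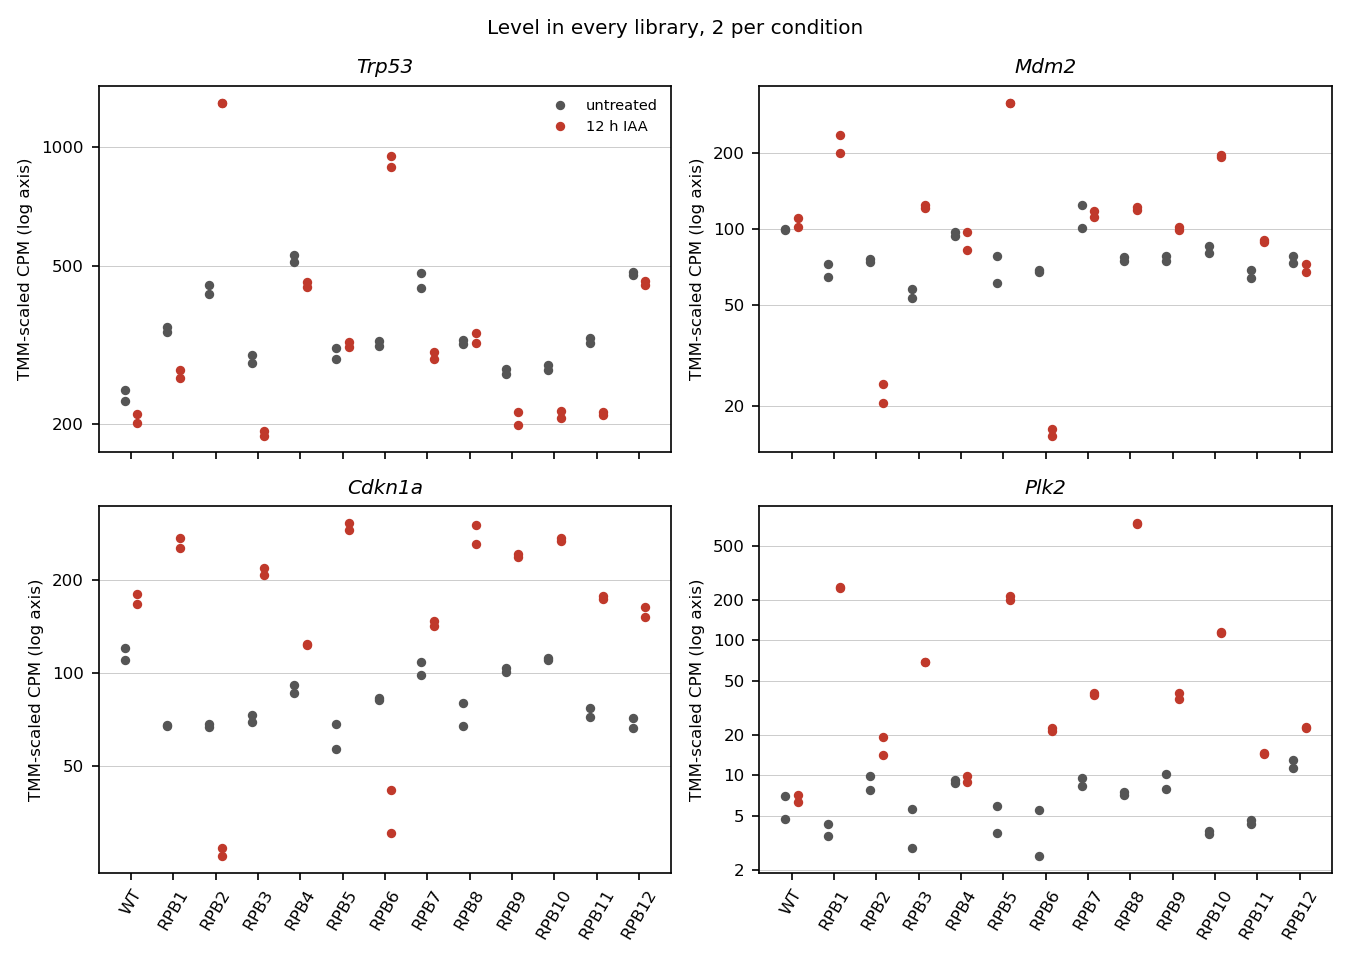
TMM-scaled CPM (log axis) of Trp53, Mdm2, Cdkn1a and Plk2 in every library, by line on the x axis, grey for untreated and red for 12 h of IAA, 2 points each. Treated Trp53 is highest in RPB2 and RPB6, where treated Mdm2 and Cdkn1a are lowest.

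Cdkn1a, whose product p21 inhibits cyclin-dependent kinases, was called in all 13 lines. It rose in 10 degron lines and in WT, and fell in RPB2 and RPB6. In WT it went from 121 and 110 CPM to 181 and 167 CPM (0.59 ± 0.091, edgeR adjusted p = 4.47e-05), so that IAA treatment was followed by a rise without any degron. In RPB5 it went from 56.9 and 68.4 CPM to 306 and 290 CPM (2.24 ± 0.095), and in RPB12 from 71.7 and 66.6 CPM to 153 and 163 CPM (1.19 ± 0.095, edgeR adjusted p = 3.57e-13). In RPB2 it went from 68.4 and 67.2 CPM to 27.1 and 25.6 CPM (-1.36 ± 0.14, edgeR adjusted p = 3.46e-12), and in RPB6 from 81.9 and 83.2 CPM to 30.5 and 41.9 CPM (-1.19 ± 0.12). The groups were apart in every line. Of its exonic bases, 7.68% overlap the gene model AC167363.2 on the opposite strand. The RPB4 rise (0.48 ± 0.096) lost its call without untreated replicate 2 (0.43).

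Plk2, a polo-like kinase that p53 activates, had the largest rise among the members. In the RPB8 line it stood at 7.52 and 7.22 CPM untreated and at 724 and 737 CPM after IAA (6.63 ± 0.15, edgeR adjusted p = 7.36e-35). It rose in 11 of 12 degron lines, and the exception was RPB4, where it stood at 9.21 and 8.85 CPM and then at 9.90 and 8.99 CPM. Its treated libraries in RPB6, at 22.5 and 21.3 CPM, were above the untreated ones at 5.55 and 2.54 CPM (2.44 ± 0.23), in a line where 24 members fell. That change was 0.49 and not called on the mitochondrial scale. In RPB2 it went from 7.84 and 9.90 CPM to 14.3 and 19.1 CPM (0.89 ± 0.23, edgeR adjusted p = 6.71e-04). The rise in RPB2 flipped to -1.29 on the mitochondrial scale, was 0.04 on total counts, and was 0.65 and not called without IAA replicate 2.

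Btg2, an antiproliferative gene, rose in 8 lines, from 5.96 and 7.44 CPM to 185 and 184 CPM in RPB5 (4.76 ± 0.14, edgeR adjusted p = 4.33e-30). It fell in RPB6, from 8.96 and 9.13 CPM to 4.97 and 4.05 CPM (-0.999 ± 0.26), and was not called in RPB2 (0.17). Ccng1, cyclin G1, rose in 8 lines and most in RPB8, from 135 and 147 CPM to 1159 and 1100 CPM (3.00 ± 0.10, edgeR adjusted p = 5.42e-28). Zmat3, an RNA-binding protein, rose in 6 lines and fell in RPB2, RPB6 and RPB12. Plk3, another polo-like kinase, rose in RPB1 alone of the 13 lines (1.04 ± 0.15) and fell in RPB2, RPB3, RPB6, RPB7 and RPB9. Psrc1, a microtubule-binding protein, rose in 5 lines and fell in 5, by 2.07 on the log2 scale in RPB2.

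Among the 11 tested apoptosis genes the counts of rises and falls were 10 and 0 in RPB10, 9 and 1 in RPB1, and 9 and 0 in RPB5. They were 9 and 1 in RPB3, 8 and 1 in RPB8, 6 and 1 in RPB7, 4 and 0 in RPB9 and 3 and 0 in RPB11. In RPB2 they were 1 and 6, in RPB6 2 and 6, in RPB4 and RPB12 0 and 1, and in WT 0 and 0. The share of all genes called in each line is as given above. Pmaip1, which encodes NOXA, a BH3-only protein that opens the way for BAX and BAK, rose in 9 lines. In RPB8 it went from 7.52 and 6.14 CPM to 176 and 174 CPM (4.67 ± 0.15, edgeR adjusted p = 4.46e-29). It fell in RPB4, from 16.2 and 17.3 CPM to 8.61 and 8.38 CPM (-0.98 ± 0.19, edgeR adjusted p = 7.57e-04), and in RPB12, from 15.4 and 13.4 CPM to 6.79 and 5.995 CPM (-1.16 ± 0.19). Treated and untreated libraries did not overlap in any of these 3 lines. In RPB6 it rose from 3.58 and 4.56 CPM to 7.62 and 6.75 CPM (0.81 ± 0.28). That rise flipped to -1.14 on the mitochondrial scale and lost its call without IAA replicate 1 (0.67) or untreated replicate 1 (0.65). In RPB11 the rise of 0.80 lost its call without IAA replicate 2 (0.72) or untreated replicate 1 (0.70).

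Phlda3, a repressor of AKT, rose in 8 lines and showed the deepest fall of any member. In RPB10 it went from 18.1 and 18.1 CPM to 125 and 123 CPM (2.78 ± 0.16, edgeR adjusted p = 2.06e-18). In RPB2 it went from 29.4 and 28.1 CPM to 2.38 and 1.86 CPM (-3.74 ± 0.39, edgeR adjusted p = 8.14e-12), while in RPB6 it was at 11.6 and 9.13 CPM and then 5.63 and 7.09 CPM, which was not called (-0.70 ± 0.32, edgeR adjusted p = 0.0529). Bbc3, which encodes PUMA, rose in RPB1, RPB3, RPB5, RPB8 and RPB10 by 1.05 to 2.82 and fell in no line. Perp, a membrane protein, rose in 4 lines from levels of at most 2.62 CPM in their untreated libraries.

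Bax, the pore-forming protein of mitochondria, had another pattern than the other apoptosis genes. It rose in RPB2, from 157 and 169 CPM to 401 and 437 CPM (1.36 ± 0.15, edgeR adjusted p = 5.17e-11), and in RPB6, from 104 and 115 CPM to 240 and 269 CPM (1.21 ± 0.15), and both changes flipped to called falls on the mitochondrial scale. It fell in RPB3 and RPB7 (-0.41 and -0.65) and was not called elsewhere. Its exons share 192 bases with the gene model Gm45808 on the same strand, so part of its reads may be lost or shared. Apaf1, the scaffold of the apoptosome, rose in 5 lines and fell in RPB2, RPB6 and RPB8. The death receptor genes Tnfrsf10b and Eda2r rose in 7 and 5 lines and each fell in RPB2 and RPB6. Pidd1, a caspase-2 activator, rose in 6 lines, the nuclease gene Aen in 7 and Ei24, an endoplasmic reticulum protein, in 3, and Ei24 fell to the lowest value in RPB2 (-2.54 ± 0.13).

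Ercc5, a nuclease of nucleotide excision repair, rose in 8 lines, most in RPB5 from 25.5 and 20.7 CPM to 91.6 and 86.2 CPM (1.96 ± 0.12, edgeR adjusted p = 7.69e-19). It fell in RPB2 from 23.1 and 21.3 CPM to 16.2 and 14.9 CPM (-0.51 ± 0.18), a call lost with RLE size factors (-0.27), in the fit of that line alone (-0.48), without IAA replicate 2 (-0.47) and without untreated replicate 1 (-0.45). Polk, a polymerase that copies past damaged bases, went from 17.7 and 11.2 CPM to 34.4 and 41.6 CPM in RPB5 (1.42 ± 0.18) and from 9.79 and 10.2 CPM to 3.33 and 2.80 CPM in RPB2 (-1.70 ± 0.38, edgeR adjusted p = 1.40e-04). Its rise in RPB8 (0.61) flipped to -0.88 on the mitochondrial scale. Xpc, the damage sensor of the same repair path, rose in 6 lines by at most 0.68. Rrm2b, a subunit of ribonucleotide reductase, rose most in RPB11, from 17.4 and 16.1 CPM to 36.4 and 36.5 CPM (1.13 ± 0.17). Ddb2 shares 23.8% of its exonic bases with Acp2 on the opposite strand, so its 3 rises and 3 falls are uncertain, since the sources used here do not give the strand setting of the counting.

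In the last group the members parted. Trp53inp1, a stress protein of autophagy, rose in 8 lines, most in RPB5 from 57.9 and 50.6 CPM to 389 and 440 CPM (2.94 ± 0.12, edgeR adjusted p = 1.29e-24), and fell in RPB6 from 50.5 and 47.5 CPM to 13.6 and 17.9 CPM (-1.64 ± 0.18). Its fall in RPB2 (-0.44) lost its call with RLE size factors (-0.20), in the fit of that line alone (-0.41), without IAA replicate 2 (-0.34) and without untreated replicate 1 (-0.23). Gdf15, a secreted stress hormone, rose in RPB1, RPB5, RPB8 and RPB10 and fell in RPB3, RPB6, RPB7, RPB9 and RPB11. It went from 11.6 and 9.44 CPM to 48.4 and 45.5 CPM in RPB1 (2.15 ± 0.20, edgeR adjusted p = 7.28e-13) and from 40.6 and 53.8 CPM to 14.1 and 11.4 CPM in RPB7 (-1.89 ± 0.18, edgeR adjusted p = 1.11e-11). The treated RPB7 and RPB1 libraries thus lay on opposite sides of their controls without overlap.

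Sesn2, a stress-induced inhibitor of mTORC1, fell most in RPB6, from 127 and 135 CPM to 14.2 and 7.43 CPM (-3.59 ± 0.14, edgeR adjusted p = 1.65e-25), and in RPB2, from 106 and 114 CPM to 16.7 and 16.3 CPM (-2.74 ± 0.14). It rose in RPB1, RPB5 and RPB10, most in RPB10 from 70.6 and 74.8 CPM to 166 and 164 CPM (1.18 ± 0.093). Sesn1, its relative, fell in 5 lines and rose in RPB12 (0.74 ± 0.14). Tigar, an enzyme that lowers glycolysis, fell in 7 lines, by 2.16 on the log2 scale in RPB6, and rose in RPB4 (0.34 ± 0.092) and RPB11 (0.26 ± 0.088).

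The responses of RPB2 and RPB6 were set against that of RPB1, the catalytic subunit's line, by the difference of the 2 log2 changes. For RPB2 minus RPB1, 2 members were higher and 29 lower (62.6% of all genes called), with a median difference of -2.87 for the members and -0.61 for all genes. For RPB6 minus RPB1, 2 were higher and 27 lower (63.4%), with medians of -2.43 and -0.51. The same RPB1 libraries enter both comparisons, so their values are given side by side. The higher members were Trp53 and Bax for RPB2, and Trp53 and Bax for RPB6. Trp53 differed by 1.94 ± 0.095 in RPB2 (edgeR adjusted p = 5.00e-22) and by 1.90 ± 0.095 in RPB6 (edgeR adjusted p = 1.27e-21). On the mitochondrial scale neither gene was called in either difference: Trp53 was at 0.29 and 0.50, and Bax changed sign to -0.19 and -0.09. On that scale 30 members were lower and 0 higher in each difference, for which no share of all genes is given. The largest negative differences were those of Phlda3 in RPB2 (-6.29 ± 0.41, edgeR adjusted p = 8.04e-18) and of Btg2 in RPB6 (-5.47 ± 0.28, edgeR adjusted p = 2.33e-21). For Plk2 the difference was -5.05 ± 0.30 in RPB2 and -3.50 ± 0.35 in RPB6, and it was called lower on the mitochondrial scale too (-6.66 and -4.89).

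**Figure D4:**
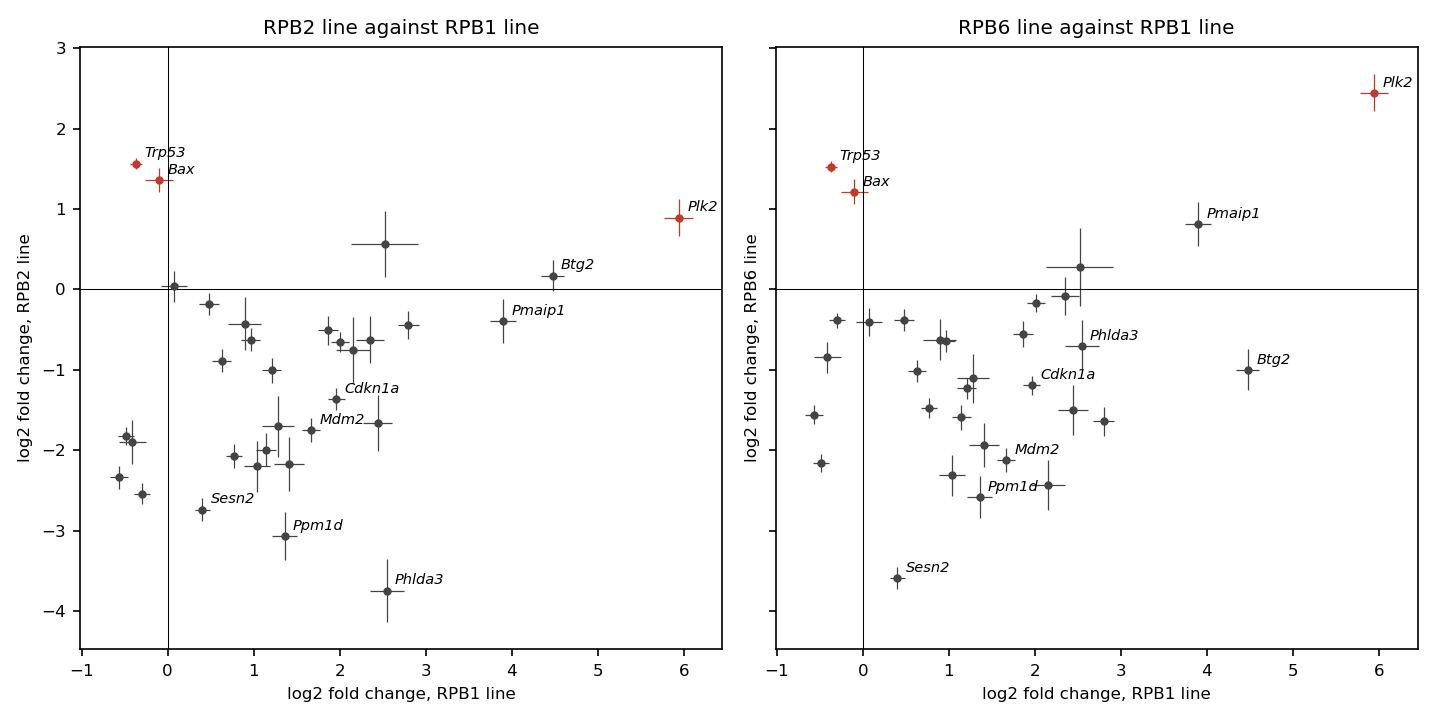
Log2 fold change after 12 h of IAA of each tested member in the RPB1 line (x axis) against that in the RPB2 line (left) or the RPB6 line (right), with bars of 1 SE. Most points lie right of 0 and below 0, while Trp53 and Bax (red) lie near 0 on x and above 1 on y, and Plk2 (red) is far right and above 0.

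RPB4 and RPB7 form the stalk of Pol II, and the members told their lines apart. For RPB7 minus RPB4, 14 members were higher and 8 lower (24.5% of all genes called). Plk2 differed by 2.10 ± 0.28 (edgeR adjusted p = 7.66e-08), Pmaip1 by 1.52 ± 0.23 (edgeR adjusted p = 1.68e-06) and Gdf15 by -2.19 ± 0.32 (edgeR adjusted p = 6.97e-07). On the mitochondrial scale 1 was higher and 6 lower, for which no share of all genes is given. RPB3 and RPB11 form the subunit pair on which the enzyme assembles. For RPB11 minus RPB3, 1 member was higher, Tigar (0.62 ± 0.12), and 16 were lower (12.3% of all genes called), with Plk2 at -2.33 ± 0.32 and Trp53inp1 at -1.98. Tigar changed sign on the mitochondrial scale (-0.11) and was not called. For RPB12 minus RPB4, Cdkn1a was higher (0.72 ± 0.14, edgeR adjusted p = 0.00389) and Sesn2 lower (-0.58 ± 0.13, edgeR adjusted p = 0.0442), and 30 members were not called (0.151% of all genes called).

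Since Cdkn1a also rose in WT, each line's response was compared with that of WT, the same 4 WT libraries entering every comparison. A lower response can be a smaller rise or a larger fall. In RPB1 the response of 25 members was higher and that of 4 lower than in WT (49.1% of all genes called), in RPB5 23 and 2 (42.3%), in RPB10 24 and 2 (25.6%), in RPB3 21 and 4 (28.2%), and in RPB8 20 and 3 (49.5%). The counts were 12 and 8 in RPB7 (25.2%), 10 and 3 in RPB9 (18.0%), 8 and 2 in RPB11 (11.3%), 2 and 22 in RPB2 (55.5%), and 4 and 21 in RPB6 (54.1%). On the mitochondrial scale 7 were higher and 13 lower in RPB8, where 10 of the 23 called members changed sign and the members' median difference was -0.57. On the same scale 0 were higher and 29 lower in RPB2, and 0 and 27 in RPB6. No share of all genes is given for that scale in these comparisons. In RPB4 0 of 32 members differed from WT (0.284% of all genes called by edgeR), and 6 had an unadjusted p under 0.05. The rise of Cdkn1a in RPB4 was 0.11 ± 0.13 below that of WT. In RPB12 Cdkn1a rose more than in WT (0.60 ± 0.13, edgeR adjusted p = 0.0144), Sesn2 was lower (-0.65 ± 0.14, edgeR adjusted p = 0.00932), and the other 30 were not called (0.53% of all genes called). In RPB7 the change of Cdkn1a did not pass against WT either (-0.11 ± 0.13).

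Members already differed before IAA. Trp53 stood at 243 and 229 CPM in untreated WT cells and at 267 to 533 CPM in the 24 untreated libraries of the degron lines, all above both WT libraries. It was highest in untreated RPB4 (533 and 512 CPM) and RPB12 (483 and 474 CPM). Pmaip1 stood at 25.0 and 21.8 CPM in untreated WT and at 3.58 and 4.56 CPM in untreated RPB6 (-2.51 on the log2 scale). In the 12 h set all untreated degron libraries lay below both WT libraries for Pmaip1, with 19.0 CPM the highest. The 0 h libraries of the time course, which were scaled apart, did not all lie that low. There Pmaip1 stood at 48.82 and 52.01 CPM in RPB6, 21.97 and 19.71 CPM in RPB3, and 19.01 and 18.54 CPM in RPB1. The low RPB6 level of Pmaip1 thus holds for the 12 h set only. For Cdkn1a the WT libraries, at 121 and 110 CPM, lay above or within the untreated degron range of 56.9 to 112 CPM. Against untreated WT, 3 members were higher and 17 lower in RPB1 (21.2% of all genes called), 5 and 18 in RPB12 (40.2%), 7 and 9 in RPB4 (33.1%), 11 and 7 in RPB7 (53.7%), and 5 and 3 in RPB9 (15.7%). The counts were 7 and 17 in RPB2 (40.8%), 5 and 16 in RPB3 (29.9%), 3 and 16 in RPB5 (17.9%), 4 and 16 in RPB6 (24.5%), 3 and 12 in RPB8 (20%), 5 and 8 in RPB10 (31.8%), and 4 and 14 in RPB11 (22.8%). These comparisons share the WT libraries. In RPB7 56.25% of the members were called, which is near the share of all genes (26.9% higher and 26.8% lower). Within the 12 h set untreated Sesn2 was highest in RPB7, at 308 and 293 CPM against 86.5 and 81.5 CPM in WT (1.84 on the log2 scale). Gdf15 was highest there too (2.28). At 0 h of the time course RPB6 held Sesn2 at 335 and 281 CPM and Gdf15 at 48.1 and 40.5 CPM.

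After 1 h of IAA, of 32 tested members in the RPB1 line 2 rose, Bax and Tigar, and 7 fell, namely Mdm2, Mdm4, Ppm1d, Cdkn1a, Ccng1, Zmat3 and Polk, which is 28.1% of the members beside 24.9% of all genes called. Mdm2 went from 68.6 and 73.1 CPM at 0 h to 51.8 and 54.4 CPM at 1 h (-0.42 ± 0.093, edgeR adjusted p = 0.00363), and Cdkn1a from 76.3 and 73.5 CPM to 62.1 and 48.4 CPM (-0.43 ± 0.12, edgeR adjusted p = 0.0160). Tigar went from 121 and 122 CPM to 173 and 167 CPM (0.49 ± 0.078, edgeR adjusted p = 3.24e-04). The 0 h and 1 h libraries did not overlap for these 3 genes. Trp53 was at 307 and 309 CPM and then at 341 and 333 CPM, which was not called (0.13 ± 0.064, edgeR adjusted p = 0.145). Plk2 was at 2.70 and 2.14 CPM and then at 4.39 and 3.84 CPM (0.76 ± 0.30), not called either. Some of the 9 calls were lost when any 1 library was left out, and calls among all genes were lost as well. The members' median was -0.16 without 0 h replicate 1 and -0.17 without 0 h replicate 2. It was -0.12 without IAA replicate 1 and -0.21 without IAA replicate 2. On the mitochondrial scale 1 member was called higher and 0 lower, beside 537 and 772 of all 15658 genes.

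In the RPB3 and RPB6 lines 0 members were called at 1 h by edgeR, with 0.358% and 1.54% of all genes called. An unadjusted p under 0.05 was reached by 3 members in RPB3 and 8 in RPB6, and DESeq2 called 0 in both. Mdm2 was at 62.7 and 64.6 CPM at 0 h and 62.2 and 56.8 CPM at 1 h in RPB3, and at 129 and 118 CPM and then 107 and 121 CPM in RPB6, where the groups overlapped. With the replicate number as a block 2 members were called in RPB6, where 400 of all 15658 genes were higher and 288 lower.

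**Figure D5:**
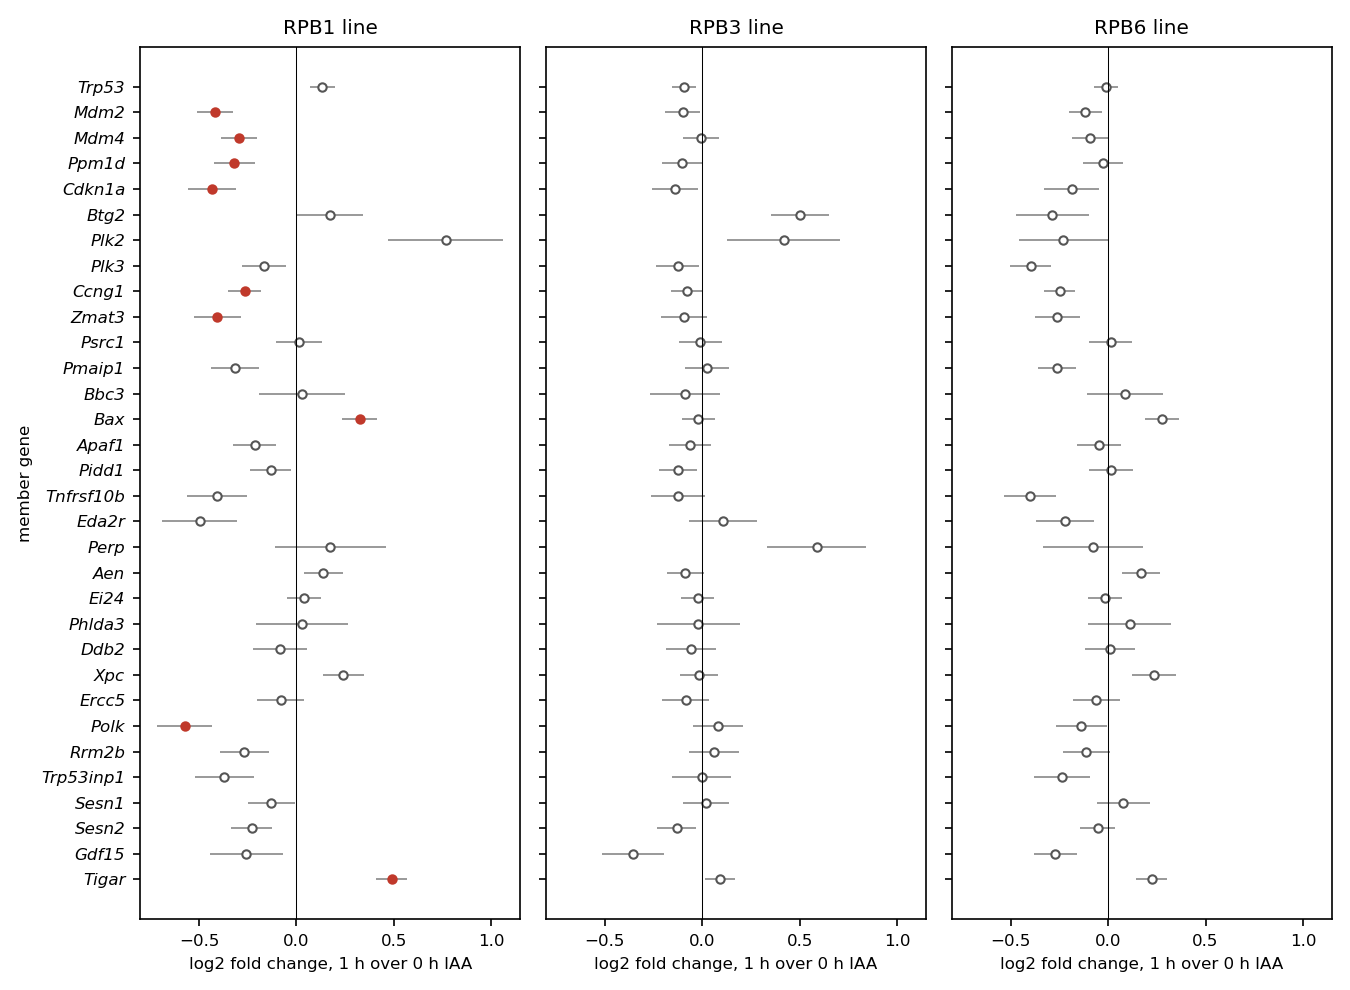
Log2 fold change of each tested member (rows) after 1 h of IAA against 0 h in the RPB1, RPB3 and RPB6 lines, with bars of 1 SE and filled points where the change was called. In RPB1, 7 of the 9 filled points lie left of 0, and the other 2 panels hold no filled point.

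Other genes of the pathway were read from 5 lists, with the share of all genes called in each line as given above. Of 24 other known p53 targets, 17 rose and 5 fell in RPB1 (median 1.12), 17 and 2 in RPB8, 17 and 2 in RPB5, 14 and 3 in RPB10, 4 and 10 in RPB2 and 6 and 10 in RPB6. In RPB1, Hic1, a transcriptional repressor, went from 0.820 to 58.8 CPM in the mean (6.12 ± 0.28, edgeR adjusted p = 1.73e-23), Slc19a2, a thiamine transporter, from 28.7 to 143 CPM and the ephrin receptor gene Epha2 from 72.8 to 355 CPM. Trp73, the p53 relative p73, rose in RPB1 from 2.24 to 26.8 CPM (3.56 ± 0.26, edgeR adjusted p = 2.58e-16). It also rose in RPB3 (2.03), RPB5 (3.42), RPB8 (1.61), RPB9 (0.73) and RPB10 (1.32). It fell in RPB2 (-2.50) and RPB6 (-1.31) and was not called in the other lines, and Trp63 was not tested. Of 20 cell cycle genes that p21 is known to repress through the DREAM complex, 0 rose and 18 fell in RPB1, 0 and 15 in RPB3, 4 and 14 in RPB2 and 6 and 12 in RPB6. Ccnb1, cyclin B1, went from 503 to 161 CPM in RPB1 (-1.65 ± 0.075, edgeR adjusted p = 2.83e-23), Top2a from 915 to 281 CPM and Mybl2 from 773 to 292 CPM.

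Of 20 kinases and other modifiers that act on p53, 2 rose and 13 fell in RPB1. Among the falls were the acetyltransferase gene Kat5 (-1.81 ± 0.14) and Usp7, which removes ubiquitin from p53 and MDM2 (-1.02 ± 0.078). Ppp1r13l, an inhibitor of p53, rose in RPB1 (1.94 ± 0.14). The rises and falls were 3 and 14 in RPB5, 4 and 13 in RPB8, 3 and 10 in RPB10, and 4 and 7 in RPB3. In RPB2 they were 4 and 11, in RPB6 5 and 11, in RPB7 and RPB9 2 and 8, and in RPB11 2 and 7. In WT, RPB4 and RPB12 0 were called. Of 9 ribosomal and nucleolar proteins known to bind MDM2, 1 rose and 4 fell in RPB1, with Gnl3 (-1.66 ± 0.098), Ncl (-0.56 ± 0.076) and Npm1 (-0.44 ± 0.081) among the falls. In RPB2 and RPB6 alike 7 of these 9 rose and 2 fell, and in RPB8 5 rose and 0 fell. The counts were 0 and 8 in RPB3, 1 and 5 in RPB5, and 1 and 3 in RPB10. They were 0 and 4 in RPB7 and in RPB11, and 0 and 3 in RPB9. The lists were read on the TMM scale only.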

How the data were processed

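RNA-seq was measured in 64 libraries, and the values used are the raw counts per gene in the table the authors deposited; 4 other columns were not used. The submitters' processing notes name cutadapt 1.18, STAR, featureCounts and the builds mm10 and dm6, without settings; the sources used here do not give multimapping and strand settings. Cells of the fly line S2 were added as a spike-in, which was not analysed here. The protocol and the series text give different doxycycline doses (2 and 1 µg/ml). Symbols came from GENCODE M21 (55154 of 55335 genes named).

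Counts were analysed with edgeR 4.0.16 in R 4.3.3: filterByExpr, TMM scaling, and quasi-likelihood tests with Benjamini-Hochberg adjustment over all genes tested at 0.05. The 52 libraries of the 12 h set (17928 genes, 99.8% of counts, 26 residual degrees of freedom) and the 12 libraries at 0 h and 1 h (15658 genes, 6 degrees of freedom) were fitted apart. The model was first tried on simulated counts of the 0 h and 1 h design, and the 12 h design was not simulated. An SE is the absolute log2 change divided by the square root of F. Alternatives were RLE size factors, total counts, scaling to 13 mitochondrial mRNAs, no filter, DESeq2 1.42.0, each line's own 4 libraries, the replicate number as a block, and leaving out each library; scaling to mitochondrial mRNAs without 1 RPB3 library was chosen after seeing the data.

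The members and all lists were chosen with earlier results of these data known, so they are not independent evidence. Values in each library were given by rule for Trp53, Mdm2, Cdkn1a and the 2 members of each role group called in most degron lines, and by rule for the highest and lowest changes of a line; the other values shown were chosen after they were seen.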

Additional observations from a re-analysis of the deposited data

Results flagged for a closer look

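Among the 11 members named by rule, 17 cases were found in which a member was called in opposite directions in the 2 lines compared, and the difference of the log2 changes was itself called by edgeR's quasi-likelihood test. Over all tested members there were 41 such cases, 18 for RPB2 minus RPB1, 20 for RPB6 minus RPB1, 2 for RPB7 minus RPB4 and 1 for RPB11 minus RPB3. Opposite calls in 2 lines nearly ensure that their difference is called, so the second condition adds little. Opposite calls were not counted over all genes, so these numbers have no background share. The difference itself was called for 62.6%, 63.4%, 24.5% and 12.3% of all genes, in the same order. The RPB1 libraries are shared by the RPB2 and RPB6 comparisons.

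For RPB2 minus RPB1, the differences were 1.94 for Trp53, -3.41 for Mdm2, -4.42 for Ppm1d, -3.32 for Cdkn1a, -6.29 for Phlda3, -2.37 for Ercc5, -2.99 for Polk and -3.24 for Trp53inp1. Trp53, which encodes p53, was the 1 of these 8 members that rose in RPB2 and fell in RPB1. On the mitochondrial scale its change in RPB2 was -0.65, and its difference was 0.29 and not called. The fall of Ercc5 and that of Trp53inp1 in RPB2 were calls that other settings lost.

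For RPB6 minus RPB1, the differences were 1.90 for Trp53, -3.78 for Mdm2, -3.94 for Ppm1d, -3.15 for Cdkn1a, -2.41 for Ercc5, -2.39 for Polk, -4.44 for Trp53inp1 and -4.58 for Gdf15. For RPB7 minus RPB4, Pmaip1, the NOXA gene, differed by 1.52.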

How the results depend on the processing

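Of the 176 log2 changes of the 11 members named by rule, none reversed under RLE size factors, total counts, no low-count filter, DESeq2, each line's own 4 libraries or the replicate block, and 2, 4, 2, 6, 7 and 0 lost their call. Leaving out 1 library lost 33 of 704 values' calls and reversed none. Scaling to mitochondrial mRNAs took the call of 35 more and reversed 12: Trp53 to -0.65 in RPB2, 0.19 in RPB3, -0.44 in RPB6 and -1.48 in RPB8; Plk2 to -1.29 in RPB2; Pmaip1 to -1.14 in RPB6; Gdf15 to 0.15 in RPB3 and -0.31 in RPB8; and Mdm2 to -0.85, Ppm1d to -1.24, Ercc5 to -0.28 and Polk to -0.88 in RPB8. On that scale the members called at 12 h numbered 0 in WT, 0 in RPB4, 11 in RPB7, 6 in RPB9, 19 in RPB10, 4 in RPB11 and 1 in RPB12, and at 1 h 1 in RPB1. Against WT they numbered 15 in RPB1, 15 in RPB5, 4 in RPB7, 4 in RPB9, 9 in RPB10, 2 in RPB11 and 0 in RPB12, for RPB7 minus RPB4 7 and for RPB12 minus RPB4 0. In untreated cells against WT they numbered 7 in RPB1, 12 in RPB2, 5 in RPB3, 10 in RPB4, 8 in RPB5, 5 in RPB6, 6 in RPB8, 2 in RPB9, 5 in RPB10 and 4 in RPB11. No share of all genes is given for the counts against WT, between lines and in untreated cells. With each line's own 4 libraries 2 members were called in WT, 7 in RPB4, 16 in RPB7 and 11 in RPB12 at 12 h. At 1 h 16 were called in RPB1. In these fits 526 genes were higher and 534 lower of 13883 in WT, and 354 and 313 of 13170 in RPB4. They were 1847 and 2062 of 14003 in RPB7 and 941 and 1080 of 13442 in RPB12. At 1 h they were 2585 and 2895 of 14028 in RPB1. With no filter 1 member was called for RPB12 minus RPB4. The cause was not tested. Leaving out 1 library gave 2 to 3 calls in RPB4 at 12 h, and 3 to 5 in RPB1, 0 to 1 in RPB3 (1 without IAA replicate 1) and 0 to 1 in RPB6 (1 without IAA replicate 2) at 1 h. Replicate numbers did not pair the samples (correlations of deviations from -0.15 to 0.055), and the replicate block moved 1 count by more than 1.5 times, to 2 calls in RPB6 at 1 h.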

Other observations

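Gene length went with the size of the response in some lines. In the RPB8 line the 12 tested members spanning under 10 kb had a median log2 change of 2.08 and the 9 spanning over 30 kb one of 0.27. Over all tested genes of those lengths the medians were 0.66 and -0.63. Short members such as Plk2, Ccng1 and Pmaip1 rose most there, while Mdm4 and Apaf1, which span 71.1 and 93.5 kb, fell. The short members Bax and Plk3, at 5.20 and 5.31 kb, were not called there. In the RPB1 line the medians were 2.08 and 1.21 for the members and 0.42 and -0.22 for all genes. The long members had the higher median in RPB7 (0.49 against 0.39) and RPB11 (0.43 against 0.27). The part of gene length in these results was not tested.

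The RPB6 line differed between the sets before any long treatment. At 0 h of the short time course Mdm2 stood at 129 and 118 CPM and Cdkn1a at 33.4 and 26.4 CPM, while in the untreated libraries of the 12 h set Mdm2 stood at 67.9 and 68.8 CPM and Cdkn1a at 81.9 and 83.2 CPM. Pmaip1 was also higher at 0 h, at 48.82 and 52.01 CPM, than in the untreated RPB6 libraries of the 12 h set. So was Sesn2, at 335 and 281 CPM at 0 h. The sets were scaled apart, so no test was made between them.

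The members' summed share of all counts was 0.472% and 0.479% in treated RPB10 libraries against 0.219% and 0.219% in untreated ones, and 0.122% and 0.122% in treated RPB2 libraries against 0.195% and 0.193%.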
